A study of Mus musculus with 14 samples.

Results

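Collagens and the proteins that pack them were measured here in cultured macrophages through 8 genes: Lum, Dcn, Col1a1, Col1a2, Col3a1, Sparc, Postn and Fbn1. They were chosen by name, and their probes were found by RefSeq accession: 10 probes for 8 of the 21356 genes with a symbol on the array. Of the 8 genes, 6 had a probe well above background on every array of at least 1 group and could be tested. Postn and Fbn1 were well above background on none of the 14 arrays. Lum and Col3a1 met this condition through wild-type cells with tumour material only, so a difference of either gene against that group follows in part from the filter.

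The cells were macrophages, differentiated with M-CSF over 1 week from marrow of C57BL/6 females aged 8 weeks, all carrying LysM-Double-Cre, a Cre recombinase driven in myeloid cells. Transgenic cells came from LysM-Double-Cre x TFEB transgene+ animals and wild-type cells from LysM-Double-Cre x TFEB transgene- animals. After replating they spent 24 h in DMEM alone (control) or in DMEM with medium conditioned by EO771 mammary tumour cells plus lysate of tumour (tumour material). Measurements came from 11 replicates on 14 one-colour arrays: 3 wild-type control replicates on 4 arrays, 3 wild-type tumour replicates on 4, 3 transgenic control replicates on 3, and 2 transgenic tumour replicates on 3. Transgenic tumour replicate 1 is not analysed here. The arrays lay on 2 slides. Slide 1 held no transgenic tumour array, and column 4 of the slides held transgenic arrays only. Array position and genotype therefore cannot be fully told apart. The labels call the replicates biological and do not say whether each was a separate animal. If they were not, the p-values measure the spread between these samples alone.

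Fibrillar collagens are triple helices that fibroblasts secrete as precursors. Type I is built from the chains of Col1a1 and Col1a2, and type III from the chain of Col3a1. Lumican (Lum) and decorin (Dcn) are small leucine-rich proteoglycans that bind collagen fibrils and limit their width. Decorin also binds TGF-beta. Sparc is a matricellular protein that binds collagen and helps its assembly, Postn encodes periostin, and Fbn1 encodes the main protein of microfibrils. Fibroblasts are the usual source of these proteins. Macrophages more often take collagen up and break it down.

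All levels below are log2 signal intensities relative to the 75th percentile of the same array, called log2 units, and a level is compared between samples of 1 probe only. A gene was called changed when its adjusted p was under 0.05 in a limma fit over 17177 genes. The 75th percentile of the raw signal ranged from 83.9 to 144, and between 35.5% and 40.2% of spots were well above background. Of 12 macrophage markers 11 were tested and 0 were below background on every array. Tfeb itself, the gene named in the transgene, had a mean of 0.88 in wild-type control, 1.17 in transgenic control, -0.68 in wild-type tumour and -0.07 in transgenic tumour cells. The transgenic difference was 0.31 in control medium (adjusted p = 0.170) and 0.69 with tumour material (adjusted p = 0.0285). The sources used here do not say whether the probe reads the transgene's own transcript. Over all genes, transgenic control replicate 1 correlated with its group's other replicates at 0.957 and 0.959, against 0.980 to 0.994 for all other pairs within a group.

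Wild-type control replicate 2 stood apart for 5 of the 6 tested genes. Its Dcn signal lay 5.11 log2 units below the mean of replicates 1 and 3, Col3a1 4.55 below, Col1a2 3.66, Col1a1 3.29 and Sparc 3.01 below. Lum, not well above background in any control array, did not show the gap. Of 17177 genes, 49 (0.285%) lay at least 2 log2 units lower in that replicate and 9 at least as much higher. Besides 5 of the 6 tested matrix genes they held 12 of 101 other genes from the lists used below. Those 12 were Fbln2, Pcolce, Col6a1, Col6a3, Col5a3, Loxl1, Cd248, Ddr2, Fn1, Ccn2, Ltbp2 and Serpinh1. The lists were named with earlier results of these data known, and the gap of 2 was chosen after the values were seen. Members' differences that turn on this group are therefore also given without replicate 2. It was picked for its low values of 5 of the 6 tested genes, so p-values without it are no added support for a difference.

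**Figure D1:**
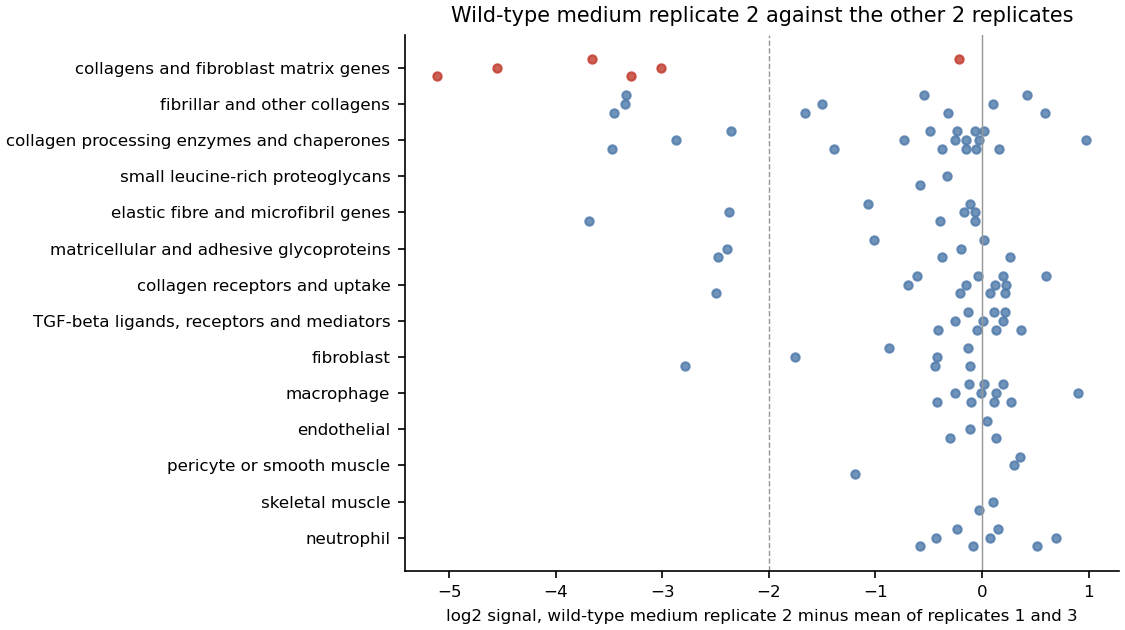
Each point is a tested gene: its log2 signal in wild-type control replicate 2 minus the mean of replicates 1 and 3, grouped by gene list, with the 6 matrix genes in red and a dashed line at a gap of 2. The red points from -5.11 to -3.01 are Dcn, Col3a1, Col1a2, Col1a1 and Sparc, and the red point near 0 is Lum, while macrophage and neutrophil markers lie around 0.

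The gap made these genes among the most variable of the array in wild-type control medium. The SD over the 3 replicates was 2.95 for Dcn, 2.63 for Col3a1, 2.11 for Col1a2, 1.90 for Col1a1 and 1.74 for Sparc, where the median SD over all genes was 0.169. Only between 0.0116% and 0.111% of genes had an SD as large as these 5. With tumour material the SDs of the same genes in wild-type cells were 0.112 to 0.278, against a median of 0.130 for all genes. In transgenic control cells the 5 SDs ran from 0.876 for Dcn to 2.57 for Col1a2, with a median of 0.3 for all genes. Replicate 2 was the lowest of the 3 there for Dcn, Col1a1, Col1a2 and Sparc. These are bulk samples, in which fewer cells of a type and less RNA per cell cannot be told apart.

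Lumican was the one member with a change in both genotypes. Its probe read -4.78, -4.95 and -4.68 in wild-type control replicates 1, 2 and 3, and 2.12, 2.35 and 2.37 in the wild-type tumour replicates. It read -4.67, -4.57 and -4.92 in transgenic control cells and -1.98 and -2.16 in transgenic tumour replicates 2 and 3. No 2 groups overlapped except the 2 control groups, in which 0 of 7 arrays were well above background. All 4 wild-type tumour arrays and 2 of 3 transgenic tumour arrays were.

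Because the control arrays only bound the level, the rise of Lum with tumour material was at least 33.7-fold in wild-type cells and at least 2.75-fold in transgenic cells. Each bound sets the mean of the bright group against the dimmest signal well above background on the control arrays. The fitted differences were 7.07 log2 units (SE 0.13, adjusted p = 6.45e-12) in wild-type cells and 2.59 (SE 0.17, adjusted p = 9.48e-07) in transgenic ones. With tumour material, the transgenic level was 4.43 log2 units lower (SE 0.16, adjusted p = 9.9e-08), which is 21.6-fold. The responses differed between genotypes by -4.48 log2 units (SE 0.21, adjusted p = 1.36e-06), with the transgenic response smaller. The 2 control groups differed by 0.05 (95% confidence interval -0.25 to 0.34, adjusted p = 0.871), a difference between values that are all below background. Leaving out wild-type control replicate 2 gave 7.02 for the wild-type response and -4.41 for the difference of responses, both still called.

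**Figure D2:**
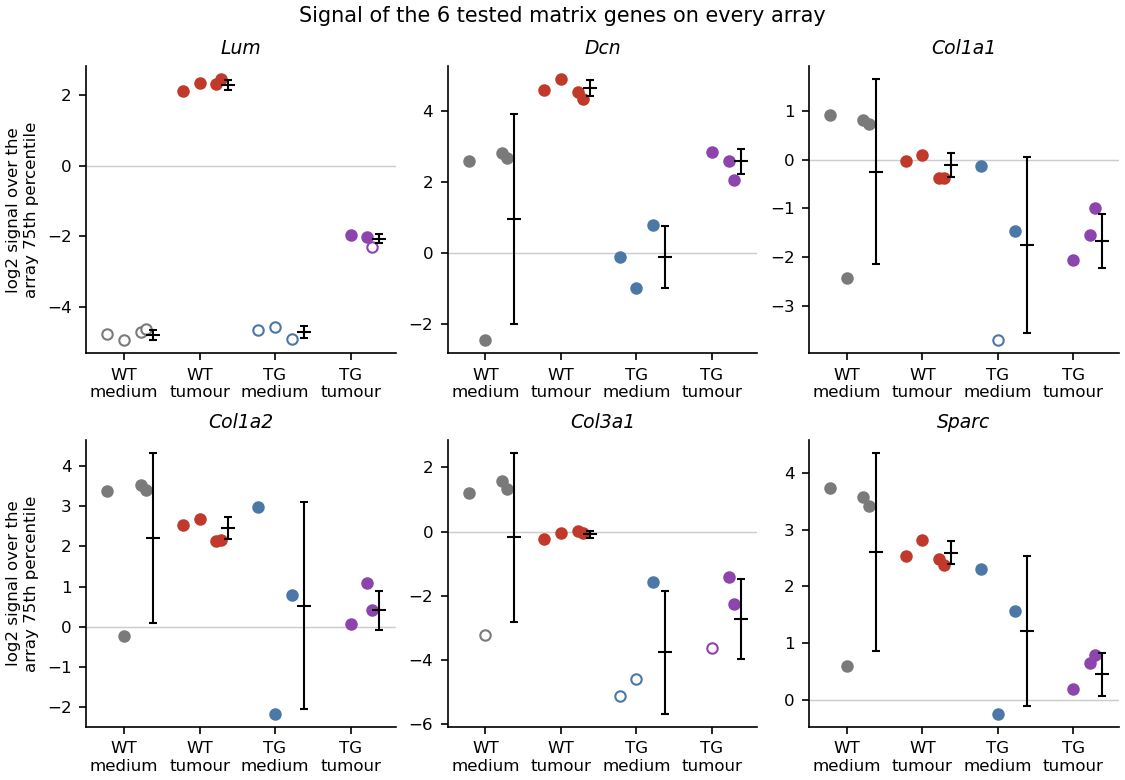
Log2 signal over the array's 75th percentile on each of the 14 arrays for the 6 tested genes, with filled points well above background, open points not, and the bar showing mean and SD over replicates. WT and TG are wild-type and transgenic cells in control medium or with tumour material. Wild-type control replicate 2 lies far below replicates 1 and 3 in every panel but that of Lum, and the wild-type tumour points lie close together.

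Decorin was the other member higher with tumour material. In wild-type control replicates 1, 2 and 3 it stood at 2.61, -2.44 and 2.74, and in the tumour replicates at 4.59, 4.89 and 4.44. Transgenic control cells gave -0.11, -0.97 and 0.79, and transgenic tumour cells 2.83 and 2.34. All 14 arrays were well above background, and in both genotypes every tumour replicate lay above every control replicate.

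In wild-type cells the difference was 3.23 log2 units, or 9.36-fold (SE 0.94, adjusted p = 0.0175). Its size rests on the low control replicate: without wild-type control replicate 2 it was 1.92 (SE 0.34, adjusted p = 0.00136), and without wild-type tumour replicate 3 it was 3.72 (adjusted p = 0.0535). On slide 1 alone it was 3.68 (adjusted p = 0.0622). On slide 2, which holds only the repeat arrays of replicate 3 of these groups, it was 1.67. Leaving out wild-type control replicate 3 gave 4.40 (adjusted p = 0.0147). In transgenic cells the difference of 2.05 did not pass (SE 1.23, adjusted p = 0.261). With wild-type control replicate 2 left out of the shared fit it was 2.42 (SE 0.41, adjusted p = 0.00161).

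Transgenic cells read lower for Dcn in both media without passing the test: by -1.54 in control medium (adjusted p = 0.381) and by -2.72 with tumour material (95% confidence interval -5.39 to -0.05, adjusted p = 0.265). Without wild-type control replicate 2 these were -2.80 (adjusted p = 0.00121) and -2.30 (adjusted p = 0.00992). The responses to tumour material differed by -1.17 (adjusted p = 0.859), and without that replicate by 0.49.

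So with tumour material 2 of the 6 tested genes rose in wild-type cells, where 39.4% of all genes were called and 22.6% rose, and 1 rose in transgenic cells, where 24.8% were called and 14.7% rose. Lum and Dcn were also the members whose tumour replicates all lay above the control replicates in each genotype, as 31.8% of all genes did in wild-type and 29.3% in transgenic cells. Both shares are near those of all genes. The comparisons of the 2 media share their arrays with those of the 2 genotypes, so each is given by its own values. The median difference over the 6 tested genes was -0.13 in wild-type and 0.15 in transgenic cells, against 0.04 and 0.06 over all genes.

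The type I collagen chains behaved as a pair. Col1a1, which encodes the alpha 1 chain, stood at 0.92, -2.44 and 0.78 in wild-type control replicates 1, 2 and 3 and at -0.03, 0.09 and -0.38 with tumour material. In transgenic cells it was at -0.12, -3.71 and -1.46 in control medium and at -2.06 and -1.27 with tumour material. The wild-type tumour values fall between the low and the high control values, and only transgenic control replicate 2 was not well above background.

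Col1a2, which encodes the alpha 2 chain, was at 3.38, -0.24 and 3.47 in wild-type control replicates 1, 2 and 3 and at 2.54, 2.68 and 2.15 with tumour material. Its transgenic values were 2.97, -2.16 and 0.78 in control medium and 0.07 and 0.76 with tumour material. As for Col1a1, replicate 2 was the lowest in both control groups. The gene-centred values of the 2 genes differed by a root mean square of 0.384 log2 units over the 11 replicates, the same as between Col1a1 and Sparc. Against a root mean square of 1.38 for Col1a1 about its own mean, this is a close match, and all 3 share the low replicate.

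With all replicates, neither type I chain was called in any of the 5 comparisons. The wild-type response to tumour material was -0.15 for Col1a1 (95% confidence interval -1.94 to 1.64, adjusted p = 0.902) and -0.10 for Col1a2 (-2.34 to 2.14, adjusted p = 0.951). Without wild-type control replicate 2 the responses were -0.996 (adjusted p = 0.269) and -1.05 (adjusted p = 0.402). Between genotypes in control medium, Col1a1 differed by -1.78 (adjusted p = 0.236) and Col1a2 by -1.99 (adjusted p = 0.289), with transgenic cells the lower. Without wild-type control replicate 2 they were -2.59 (adjusted p = 0.0491) and -2.91 (adjusted p = 0.0999). The transgenic differences with tumour material were -1.66 (adjusted p = 0.438) and -2.18 (adjusted p = 0.416), with separate replicate values for both genes.

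Col3a1 encodes the type III collagen chain. It read 1.2, -3.21 and 1.46 in wild-type control replicates 1, 2 and 3 and -0.22, -0.03 and -0.01 with tumour material. In transgenic cells it read -5.12, -4.59 and -1.58 in control medium, with 1 of 3 arrays well above background, and -3.61 and -1.84 with tumour material, with 2 of 3. Transgenic control replicate 3 overlaps with wild-type control replicate 2, while the tumour groups are separate.

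In control medium the transgenic level of Col3a1 was lower by 4.08 log2 units and was called (difference -4.08, SE 1.03, adjusted p = 0.0312). That call was lost on leaving out any 1 of 5 replicates: wild-type control 1 (adjusted p = 0.0872), wild-type control 3 (0.227), wild-type tumour 3 (0.0515), transgenic control 1 (0.0748) or transgenic control 2 (0.0919). Without wild-type control 2 it was -5.14 (adjusted p = 0.00186). It was also lost without the 3 arrays of slide column 4, which hold transgenic control replicates 1 and 2 (-2.29, adjusted p = 0.472). The single array well above background was that of transgenic control replicate 3, so the size of these differences rests in part on values that only bound the level. With tumour material the difference of -3.5 did not pass (95% confidence interval -6.21 to -0.78, adjusted p = 0.155). The wild-type response of Col3a1 was -0.26 (adjusted p = 0.856), and -1.36 without wild-type control replicate 2 (adjusted p = 0.143).

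Sparc is read by 3 probes, of which 2 were well above background on none of the 14 arrays. The bright probe gave 3.73, 0.60 and 3.5 in wild-type control replicates 1, 2 and 3, and 2.54, 2.82 and 2.43 with tumour material. Transgenic values were 2.31, -0.25 and 1.57 in control medium and 0.18 and 0.72 with tumour material. All 14 arrays were well above background for it. The 2 dim probes ranged from -5.48 to -3.34 and add no measurement of direction.

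With all replicates, Sparc was called in none of the 5 comparisons. The transgenic difference was -1.63 in control medium (adjusted p = 0.190) and -2.28 with tumour material (95% confidence interval -4.18 to -0.37, adjusted p = 0.189). Without wild-type control replicate 2 the difference in control medium was -2.37 (adjusted p = 0.0187). Its response to tumour material was -0.25 in wild-type cells (adjusted p = 0.796), or -1.02 without that replicate (adjusted p = 0.124), and -0.90 in transgenic cells (adjusted p = 0.503).

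Postn ranged from -5.16 to -4.34 and Fbn1 from -5.32 to -3.26 over the 14 arrays. The dimmest signals well above background on any array lay between -3.61 and -2.44. Neither gene was tested, and their levels were not detectable here.

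**Figure D3:**
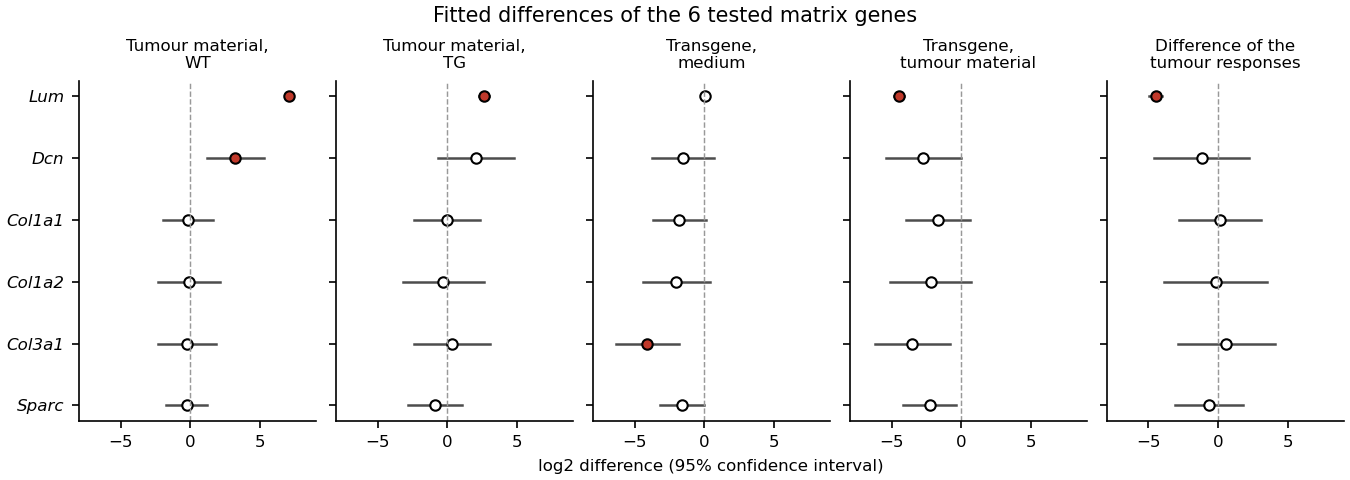
Fitted log2 differences with 95% confidence intervals for the 6 tested genes in the 5 comparisons, with red points where the adjusted p was under 0.05. Calls are Lum in all but the comparison in control medium, Dcn for tumour material in wild-type cells and Col3a1 for the transgene in control medium.

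Read across the genotypes, all 6 tested genes were lower in both transgenic tumour replicates than in any of the 3 wild-type tumour replicates. Over all genes 25.9% were lower in this way. Lum and Col3a1, 2 of the 6, could be tested only because all wild-type tumour arrays read them well above background, so the count of 6 is no support for a lower level. The fit called 1 of the 6, Lum, where 4.33% of genes were called and 2.49% were lower. In control medium the fit called 1 of the 6, Col3a1, where 8.45% of genes were called and 5.11% were lower. There, 0 of 6 genes had replicates that did not overlap, where 12.7% of all genes were lower in this way. For the difference between the responses 1 of the 6 was called, Lum, against 1.62% of genes called and 0.786% called lower. The medians over the 6 tested genes were -1.70 in control medium and -2.50 with tumour material, against -0.04 and -0.02 over all genes. The median with tumour material includes Lum (-4.43) and Col3a1 (-3.50), so it is no support for a lower level either.

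The count in control medium moved with single replicates. With wild-type control replicate 2 left out, 4 of the 6 genes were called lower in transgenic control cells, namely Col1a1, Col3a1, Dcn and Sparc. In that fit 728 of 17177 genes were called lower. The replicate was picked for its low values of these genes, so the count is no added support for a lower level. Without transgenic control replicate 1 the call was Col1a2 alone (-3.44, adjusted p = 0.0406), where 1389 of 17177 genes were called lower. Within slide 1 none of the 6 was called in this comparison. The differences of Dcn, Col1a1, Col1a2, Col3a1 and Sparc were below 0 on both slides. On slide 2 they set transgenic control replicate 3 against the repeat array of wild-type control replicate 3, which is also on slide 1. The 2 slides are therefore not separate sets of samples.

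Promoter sequence from RefSeq (GRCm38.p6) was at hand for 5 of the 8 genes. The 250 bases before the transcription start of Col1a2 (chr6:4505368-4505617, plus strand), Col3a1 (chr1:45311288-45311537, plus strand) and Sparc (chr11:55420081-55420330, minus strand) are shown because these 3 shared the low control replicate. Capitals mark matches, on either strand, to 6 motifs. They are the CCAAT box, the TATA box with the letters TATAAA, the Sp1 site as GGGCGG, the AP-1 site as TGANTCA, the SMAD box as CAGACA, and the E-box that TFEB and its relatives bind as CACGTG.
Col1a2: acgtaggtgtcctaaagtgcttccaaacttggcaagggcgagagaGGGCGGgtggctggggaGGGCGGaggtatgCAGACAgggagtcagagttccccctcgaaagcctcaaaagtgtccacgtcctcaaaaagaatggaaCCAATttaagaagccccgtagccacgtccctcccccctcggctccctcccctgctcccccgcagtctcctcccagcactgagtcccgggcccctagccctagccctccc
Col3a1: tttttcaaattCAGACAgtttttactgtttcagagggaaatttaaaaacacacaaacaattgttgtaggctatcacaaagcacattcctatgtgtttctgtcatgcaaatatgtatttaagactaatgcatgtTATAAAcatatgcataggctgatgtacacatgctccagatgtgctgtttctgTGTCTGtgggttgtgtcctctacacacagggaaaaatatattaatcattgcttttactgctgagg
Sparc: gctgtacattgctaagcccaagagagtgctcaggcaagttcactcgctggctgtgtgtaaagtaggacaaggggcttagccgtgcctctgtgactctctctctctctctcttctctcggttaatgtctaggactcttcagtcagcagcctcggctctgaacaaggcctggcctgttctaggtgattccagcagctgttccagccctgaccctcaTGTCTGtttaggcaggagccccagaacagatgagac
The window of Col1a2 holds GGGCGG at 2 places, CCAAT and CAGACA. That of Col3a1 holds TATAAA and 2 copies of CAGACA, 1 on each strand, and that of Sparc holds 1 CAGACA, on the opposite strand. Over 32851 windows of this length, CCAAT was found in 33.85%, GGGCGG in 32.7%, CAGACA in 17.1% and TATAAA in 12.4%. CACGTG, found in 6.02% of windows, and TGANTCA, found in 6.75%, were in none of the 3. A match is a stretch of letters and not a measured binding site.

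The genes whose replicate values were most like each member, by root mean square difference of gene-centred log2 values over 11 replicates, fell into groups. Nearest to Sparc were Pcolce (0.186), which speeds removal of the collagen propeptide, Aebp1 (0.339) and Serpinh1 (0.383), the collagen chaperone Hsp47. Nearest to Col1a1 were Pcolce (0.441), Loxl1 (0.470) and Aebp1 (0.498). Col1a2 lay nearest to Fn1 (0.647), Fkbp10 (0.656) and Myl9 (0.687), and among the genes nearest to Col3a1 were Col6a3 (0.763) and Serping1 (0.887). Dcn lay nearest to Grem1 (0.709), a BMP antagonist, Pla1a (0.810) and Tm4sf1 (0.916). Lum lay apart from the rest: its nearest were Il1f6 (0.249), a cytokine of the IL-1 family, Mgarp (0.662) and Stfa3 (0.768), and the distance to other members ran from 1.83 (Dcn) to 3.05 (Col1a2). The values rest on the same 11 replicates and the same low replicate.

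Matrix genes beyond the members were followed in 7 lists of 133 genes. Most collagens were not measurable: of 29 further collagen genes 14 were below background on every array and 10 were tested. With tumour material in wild-type cells 0 of the 10 rose and 2 fell, Col4a5 (at least 2.15-fold) and Col9a2 (-0.65, adjusted p = 0.0226). Over all genes 22.6% rose there and 2890 of 17177 fell. Col16a1 was lower in transgenic than in wild-type tumour cells (at least 2.63-fold, adjusted p = 0.0242). Col16a1 met the filter through wild-type tumour arrays only, and Col4a5 and Col9a2 through wild-type control arrays only. Their differences against those groups therefore follow in part from the filter. Col6a3 followed the member pattern, with replicates at -0.28, -3.62 and -0.27 in wild-type control cells. Of 12 small leucine-rich proteoglycans besides Lum and Dcn, 11 were on the array, 2 were tested and 0 were called. These 2 are too few to set against the 39.4% of all genes called in the wild-type response.

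The list of collagen processing enzymes and chaperones held 17 tested genes. With tumour material 7 rose and 1 fell in wild-type cells, where 22.6% of all genes rose. In transgenic cells 3 rose and 0 fell, where 14.7% of all genes rose. Lox, the lysyl oxidase that crosslinks collagen, rose by 2.48 (SE 0.39, adjusted p = 0.000341) in wild-type cells, and P4ha1, a prolyl hydroxylase, by 1.09 (adjusted p = 8.14e-05). Bmp1, the procollagen C-proteinase, rose by 0.73 (adjusted p = 0.00465) and was lower in transgenic cells with tumour material (-0.98, adjusted p = 0.0252). Of 8 tested elastic fibre genes 1 rose and 2 fell in wild-type cells, a share called near the 39.4% of all genes, among them Ltbp3 (-2.07, adjusted p = 0.000291).

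Among 7 tested matricellular and adhesive glycoproteins, 4 rose and 1 fell in wild-type cells, beside 39.4% of all genes called and 22.6% risen. Thbs1, encoding thrombospondin, rose by 3.03 in wild-type (SE 0.58, adjusted p = 0.0014) and by 4.2 in transgenic cells (adjusted p = 0.00165). Vcan rose by 1.07 in wild-type cells (adjusted p = 0.00163) and was lower in transgenic cells in both media (-0.90 and -1.34, adjusted p = 0.0300 and 0.0156). Tgfbi was lower in transgenic control cells (-2.53, adjusted p = 0.000404), and its response to tumour material was larger in transgenic cells (difference of responses 2.63, adjusted p = 0.0114). Spp1, encoding osteopontin, fell by 0.90 in wild-type cells (adjusted p = 0.0024) and was higher in transgenic tumour cells (1.15, adjusted p = 0.0204).

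The list of collagen receptors and uptake is wider than collagen receptors and also holds Plaur, Mfge8, Itgav, Itgb3 and Itgb5. Of its 12 tested genes, 5 rose and 5 fell in wild-type cells with tumour material. There, 39.4% of all genes were called and 22.6% rose. Itga1, the alpha 1 integrin chain, rose by 2.64 in wild-type cells (SE 0.19, adjusted p = 1.02e-06) and at least 8.74-fold in transgenic cells. It was at least 4.60-fold lower in transgenic than in wild-type control cells, and with tumour material lower by 1.81 (difference -1.81, adjusted p = 0.0018). Ddr2, a collagen receptor kinase, rose by 2.20 in wild-type cells (adjusted p = 0.00389) and was at least 4.23-fold lower in transgenic cells with tumour material. Ddr2 met the filter through wild-type tumour arrays only, so both differences follow in part from the filter. Plaur rose by 2.15 (adjusted p = 3.05e-06) and Mrc1, which takes up collagen, fell by 1.76 (adjusted p = 6.13e-05) in wild-type cells.

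Of 10 tested TGF-beta genes 4 rose and 3 fell in wild-type cells, where 39.4% of all genes were called, and 3 rose and 4 fell in transgenic cells, where 24.8% were called. Inhba, an activin subunit, rose by 5.90 in wild-type (SE 0.31, adjusted p = 6.8e-08) and by 7.51 in transgenic cells (adjusted p = 2.19e-07). Tgfbr2, a receptor, fell by 1.31 in wild-type cells (adjusted p = 1.66e-06). Across the 5 comparisons and 7 lists there were 79 calls, and 40 of them were lost when some 1 replicate was left out. Those include Bmp1, Vcan, Spp1, Itga1 and Ddr2 with tumour material between genotypes, Ddr2 in the wild-type response, Vcan in control medium and Tgfbi between the responses. Col4a5, Col9a2 and Col16a1 belong to them as well. Without wild-type control replicate 2 the wild-type rise was 1.54 for Ddr2, 2.12 for Lox, 0.81 for Vcan and 0.55 for Bmp1, all still called.

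Markers of other cell types were set beside these results, and the part of any such cell in the results was not tested. Of 18 fibroblast markers 8 were tested and 7, among them Pdgfra, Twist1, Twist2, Prrx1 and Dpt, were below background on every array. Their summed level was 231 to 299 in wild-type control, 62.3 to 78 in wild-type tumour, 138 to 292 in transgenic control and 59.6 to 68.1 in transgenic tumour replicates. Most of that sum is S100a4, which macrophages also express and which fell with tumour material (-2.27 in wild-type cells, adjusted p = 1.97e-05). Without S100a4 the sum was 75.5, 20.3 and 47.9 in wild-type control replicates 1, 2 and 3, so replicate 2 was the lowest there too. Gsn, at 5.94, 3.67 and 4.91, was the largest part of it there. The markers did not drop alike in replicate 2. It lay below the mean of replicates 1 and 3 by 3.45 for Col6a1, 2.79 for Cd248 and 1.75 for Gsn. The gap was 0.87 for Acta2, 0.44 for Pi16, 0.42 for Thy1, 0.13 for S100a4 and 0.11 for Fap. The sum without S100a4 was 20.1 to 34.7 in wild-type tumour, 20.3 to 52.9 in transgenic control and 21.6 to 29.1 in transgenic tumour replicates. Pi16 fell at least 8.84-fold and Gsn by 1.66 (adjusted p = 0.0308) in wild-type cells. Pi16 met the filter through control arrays only, so its fall follows in part from the filter. With S100a4, 3 of the 8 tested markers fell in wild-type cells, where 2890 of 17177 genes fell. The other 5 tested markers were not called there, with 0.44 for Acta2, 0.12 for Fap, -0.06 for Thy1, -0.26 for Col6a1 and -0.87 for Cd248. The summed level of the 8 members was 34.1, 2.95 and 33.7 in wild-type control replicates 1, 2 and 3 and 38.6 to 50.4 with tumour material. It was 1.81 to 14.8 in transgenic control and 9.53 to 9.98 in transgenic tumour replicates. The summed macrophage markers were 1780, 1794 and 2305 in wild-type control replicates 1, 2 and 3, with 1516 to 2410 over all replicates, so replicate 2 lay within the range of replicates 1 and 3.

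Of 13 epithelial and mammary tumour markers 12, among them Epcam, Krt8 and Krt18, were below background on every array, with a summed level of 0.588 to 1.23. None of 7 osteoblast markers was measurable. The summed neutrophil markers were 567 in transgenic control replicate 1, against 176 and 196 in replicates 2 and 3. With tumour material all 8 fell in transgenic cells, where 1744 of 17177 genes fell. In wild-type cells 7 of the 8 fell, where 2890 of 17177 genes did. Ngp met the filter through control arrays only, so its fall follows in part from the filter. Skeletal muscle markers Acta1 and Tnnt3 were lower in transgenic than in wild-type cells in both media, with a summed level of 0.481 to 0.590 in all transgenic replicates and 1.33 to 2.57 in all wild-type ones. Acta1 met the filter through wild-type arrays only, so its lower transgenic level follows in part from the filter.

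**Figure D4:**
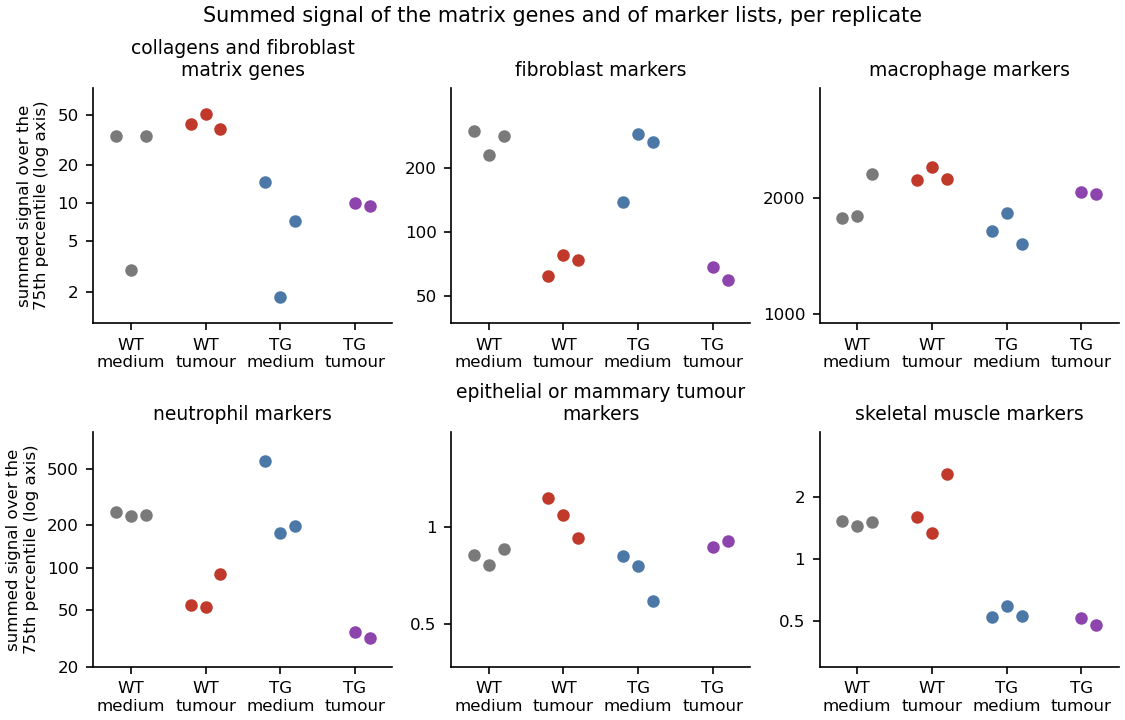
Summed signal of each gene list per replicate, as a multiple of the array's 75th percentile on a log axis, for the 4 groups. The summed matrix genes fall to 2.95 in wild-type control replicate 2 while the macrophage markers of that replicate are at 1794, between replicates 1 and 3.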

How the data were processed

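The submitters' processing notes name Agilent Feature Extraction 10.7.3.1 for the scans. The deposited signal intensity is, per the file headers, background-subtracted and spatially detrended, and each spot carries 0 or 1 marks. The authors' deposited series matrix holds log2 values, here found to be quantile normalized (median 2.84 in every column) and used as an alternative. RNA input was 200 ng, per the labels' protocols.

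Here, log2 intensity minus the log2 of each array's 75th percentile was fitted in limma 3.58.1 (R 4.3.3), with 4 group means, a slide term and repeat arrays of a replicate as a random block (correlation 0.071, kept in all alternatives), and adjusted by Benjamini-Hochberg. Between 0 and 9 uneven spots per array were left out. A probe stayed in if every array of some group read it well above background (20207), the brightest probe standing for a gene, which left 17177 genes, 10973 with a symbol. The normexp alternative used median signals in place of the planned mean signals, with an offset of 50. The fit was tested on simulated data. Arrays whose titles repeat a replicate's number with an added suffix were read as repeat arrays of it, which the labels do not state outright.

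Other genes are named by a rule: up to 4 per list with the largest called change and separate replicates in the wild-type response, and up to 3 per list in genotype comparisons. The members, lists and rules were chosen with earlier results of these data known. Same-numbered replicates did not deviate together (correlations -0.217 to 0.199), so numbers were not used to pair samples. Some genes that the naming rules select are not reported here.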

Additional observations from a re-analysis of the deposited data

Results flagged for a closer look

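The response of Lum to tumour material differed between genotypes by -4.48 log2 units (adjusted p = 1.36e-06 in limma). It was singled out because the test of the difference itself passed, and it was the single member for which it did. Lum met the filter through wild-type cells with tumour material only, so a smaller transgenic response follows in part from the filter. Every wild-type tumour replicate (2.12 to 2.37) lay above both transgenic tumour replicates (-2.16 and -1.98). The control levels on both sides are below background, so the difference between responses is measured from values that only bound the control level.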

How the results depend on the processing

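The counts of called members were 2, 1, 1, 1 and 1 for tumour material in wild-type cells, tumour material in transgenic cells, the transgene in control medium, the transgene with tumour material and the difference between the responses. With probes required to be above background on all arrays, which leaves Lum, Col1a1 and Col3a1 untested, they were 1, 0, 0, 0 and 0. Within slide 2, which holds 6 arrays, they were 1, 2, 0, 0 and 0, and within slide 1, which has no transgenic tumour array, 1 for wild-type cells and 0 for the transgene in control medium. That last count was also 0 with repeat arrays averaged, with repeat arrays left out, with no filter on dim probes, with slide column 4 as a term and without its arrays. Leaving out 1 replicate at a time gave ranges of 1 to 2, 1 to 2, 0 to 4, 1 to 2 and 1 to 1. With a replicate block the counts stayed at 2, 1, 1, 1 and 1, with Dcn at an adjusted p of 0.0191 and Col3a1 at -3.76 (adjusted p = 0.0385), and the numbers do not pair the samples.

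Reversals of sign were all in differences that were not called. In Lum for the transgene in control medium they were -0.12 (normexp), -0.30 (slide 2) and -0.29 (without slide column 4), and leaving out replicates gave -0.043 to 0.20. For Dcn the difference between the responses became 0.13 on slide 2, and -2.09 to 0.49 on leaving out replicates. For tumour material in wild-type cells, averaged repeats, left-out repeats and slide 1 gave 0.14, 0.13 and 0.13 for Col1a1, 0.25, 0.23 and 0.23 for Col1a2 and 0.093, 0.065 and 0.065 for Col3a1. Leaving out replicates gave -0.996 to 0.58 for Col1a1, -1.05 to 0.81 for Col1a2, -1.36 to 0.57 for Col3a1 and -1.02 to 0.36 for Sparc. For tumour material in transgenic cells, Col1a1 gave 0.10 with averaged repeats, 0.21 with no slide term, 0.0043 with normexp, 0.40 with a replicate block and 0.030 with slide column 4 as a term. There Col1a2 gave 0.23 with a replicate block, and Col3a1 -0.93 with repeats left out or without slide column 4 and -1.15 on slide 2. Leaving out replicates gave -0.72 to 0.64, -1.25 to 0.69 and -0.82 to 1.71 for the 3 collagens in this order. For the difference between the responses, Col1a1 gave -0.044 (averaged), -0.48 (repeats left out) and -0.20 (without column 4). Col1a2 gave 0.088 (no slide term), 0.33 (replicate block) and 0.88 (slide 2), and Col3a1 -0.997 (repeats left out) and -0.67 (without column 4). Leaving out replicates gave -0.57 to 1.2, -1.15 to 1.03 and -0.56 to 2.00 for the 3 collagens and -1.16 to 0.33 for Sparc. The cause of these changes was not tested.

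Counts over all genes also moved. They ranged over the alternatives from 1146 to 9436 for the wild-type response (6775 in the report's fit), 1995 to 6020 for the transgenic one (4265), 0 to 2433 for the transgene in control medium (1452), 0 to 1781 with tumour material (744) and 0 to 1161 between the responses (278). The lowest counts are those within slide 2, which has few arrays per group. No more than 3 replicates a group and signals near background for Lum in controls, Postn, Fbn1 and part of Col3a1 limit the precision.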

Other observations

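Decorin and lumican are neighbours on chromosome 10 in the RefSeq annotation (GRCm38.p6), with keratocan (Kera), another small leucine-rich proteoglycan, next to Lum. Kera was well above background on 0 of 14 arrays, Lum on 6 and Dcn on 14. Col5a2, which lies next to Col3a1 on chromosome 1, was well above background on 0 of 14 arrays, and Col3a1 was above it on 10.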
